A study of Mus musculus with 10 samples.

Results

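Taf1a, Nup50 and Rps4l were followed through the RNA fractions of mouse testis. These 3 genes are tied to parts of gene expression. The parts are transcription of ribosomal RNA genes, transport through the nuclear pore and, for Rps4l only by its likeness to Rps4x, the small ribosomal subunit. The 3 genes were picked out by their transcript accessions, but with earlier results of these data known. Each is read by 1 probe (A_51_P516057 for Taf1a, A_51_P411297 for Nup50 and A_51_P406105 for Rps4l), out of 50 probes that carry an accession and 60706 mouse probes on the array. The array repeats each of these probes in 10 spots.

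Testes came from C57BL/6J males aged 3 months, with 5 control and 5 prenatal testosterone samples described as biological replicates. The mothers of the testosterone group received a daily injection of testosterone under the skin, at 2.5 mg/kg, from day 14 to day 19 post coitum. The mothers of the control group received the solvent, sesame oil with benzyl benzoate, over the same days, so that mothers of both groups were injected. Total RNA of each testis was split by immunoprecipitation. The precipitated RNA (IP) was labelled with Cy5, the RNA left in the supernatant (Sup) with Cy3, and both were hybridised to the same array.

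The antibody is not named in the labels, so the IP/Sup ratio is described here as a ratio of fractions. Dyes were not swapped, and dye and fraction therefore cannot be told apart in that ratio. The treatment was given to mothers, and neither dam nor litter was among the details used here. The p-values below take the 5 testes of a group as independent and measure the spread between these samples, which would be too narrow for littermates.

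Taf1a encodes a subunit of SL1, the selectivity factor that holds TATA-binding protein at the ribosomal RNA gene promoter and recruits RNA polymerase I. Nup50 encodes a mobile nucleoporin of the nuclear basket, which binds importin alpha and takes part in the release of import cargo. Rps4l is a copy of Rps4x, which encodes protein S4 of the small ribosomal subunit. Each of these steps is used by nearly every cell, and in the testis they serve germ cells that divide, grow and later condense their nuclei.

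The accession of the Rps4l probe is that of a non-coding RNA, and the RefSeq gene table lists Rps4l as a transcribed pseudogene, whereas Taf1a and Nup50 are listed as protein coding. It is therefore described as an RNA related to ribosomal protein S4 and not as a messenger. Closely related sequences exist for Nup50 (1700123L14Rik, a transcribed pseudogene) and for Rps4l (Rps4x and the pseudogenes Rps4x-ps and Rps4l-ps), and none of these has a named probe. Probe sequences were not analysed here, so signal from such copies cannot be told apart from that of Nup50 and Rps4l. No other gene of the same pathways could be set beside the 3 genes. Of the RNA polymerase I machinery 1 of 19 listed genes carries a named probe, of the nuclear pore 1 of 30 and of the small ribosomal subunit 1 of 33, in each case the gene itself. For the tissue, 2 of 10 germ cell markers (Spats1 and Hyal3) carry a named probe. None of the Sertoli, Leydig, macrophage, endothelial or peritubular markers does, so the label of testis could not be checked with them.

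The file headers give 2 scan identifiers for the 10 arrays and a code for each array. The first scan held all 5 controls and testosterone replicates 1 to 3 (the 8-array scan), and the second held testosterone replicates 4 and 5 (the 2-array scan). The median signal of all mouse probes was 372 to 389 in Sup on control arrays and 312 to 365 on testosterone replicates 1 to 3, but 244 and 238 on testosterone replicates 4 and 5. IP medians ran alike, at 374 to 391, 316 to 367, and 238 and 235. The array codes are read here as a row and a column on a slide, which the headers do not state. By them, row 1 of the 8-array scan held only controls (replicates 1 to 4), and row 2 held control replicate 5 with testosterone replicates 1 to 3. The group, the scan and the row are thus partly bound together, and their separate parts in the differences below were not tested beyond the values given.

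All 3 genes were measured well clear of background. Each of the 100 spots per gene was well above background in both channels and 0 were saturated. The 15 negative-control probes reached at most 144 in Sup and 297 in IP on any array, against lowest array means of 541 and 1391 for Taf1a. Signals are Agilent processed intensities, averaged over spots on the log scale.

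Taf1a had more processed signal in IP than in Sup. The channels are dye normalized, so such signals do not compare amounts of RNA between the fractions. Its Sup signal was 1142, 1141, 1202, 1032 and 1086 in control replicates 1 to 5 and 926, 1018, 1044, 646 and 541 in testosterone replicates 1 to 5. Its IP signal was 2919, 3189, 3508, 3229 and 2942 in the controls and 2361, 2715, 2846, 1714 and 1391 in the testosterone samples. IP exceeded Sup on all 10 arrays, and the lowest values of both fractions were those of testosterone replicates 4 and 5, the dim arrays of the 2-array scan.

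The IP/Sup ratio of Taf1a, as log2 of Cy5 over Cy3 after subtraction of the array median, was 1.34, 1.49, 1.61, 1.64 and 1.43 in the controls. In the testosterone samples it was 1.44, 1.39, 1.52, 1.38 and 1.29. The groups overlapped, although testosterone replicate 5 was the lowest of the 10 arrays. The mean over both groups was 1.45 ± 0.061 (SE, n = 10), a 2.74-fold excess of IP relative to the array median (95% interval 2.50 to 3.00; limma against 0, adjusted p = 3.75e-11). A ratio was called where the adjusted p was under 0.05 and the ratio at least 2-fold, and 40.7% of the 41424 tested probes were called on one side or the other (8079 towards IP, 8772 towards Sup). A call alone therefore does not set Taf1a apart from other probes. Of the tested probes, 87.1% had a lower ratio than Taf1a.

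Nup50 also had more processed signal in IP than in Sup, by a smaller factor. Its Sup signal was 13889, 9839, 15597, 14830 and 14392 in control replicates 1 to 5 and 12291, 15046, 14786, 9614 and 10060 in testosterone replicates 1 to 5. Its IP signal was 26293, 26424, 29806, 33426 and 29789 in the controls and 22976, 30911, 25393, 18073 and 17218 in the testosterone samples. IP exceeded Sup on all 10 arrays. Control replicate 2 was the only array of the 8-array scan with a Sup signal in the range of the 2 dim arrays, while its IP signal lay among those of the other controls.

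The log2 IP/Sup ratio of Nup50 was 0.90, 1.43, 1.00, 1.17 and 1.04 in the controls and 0.99, 1.01, 0.86, 0.88 and 0.70 in the testosterone samples. Control replicate 2 was the highest and testosterone replicate 5 the lowest. The mean was 0.999 ± 0.069 (SE, n = 10; adjusted p = 7.53e-09, limma against 0), with a 95% interval of 1.80-fold to 2.22-fold. It therefore differed from 0 but fell just short of the 2-fold minimum, and whether it reached that minimum depended on single arrays (0.96 without control replicate 2, 1.02 without control replicate 1). Of the tested probes, 80.5% had a lower ratio. The ratios of Nup50 and Taf1a before background and dye correction were above the array median on all 10 arrays as well.

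Rps4l lay on the other side, with more processed signal in Sup than in IP. Its Sup signal was 118869, 87703, 107895, 115504 and 107434 in control replicates 1 to 5 and 100221, 101850, 97330, 76308 and 105987 in testosterone replicates 1 to 5. Its IP signal was 20808, 10595, 19112, 18938 and 18113 in the controls and 17638, 18716, 18314, 13578 and 17955 in the testosterone samples. Sup exceeded IP on all 10 arrays. Control replicate 2 had the lowest IP signal, testosterone replicate 4 the next lowest, and the other 8 arrays lay between 17638 and 20808.

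**Figure D1:**
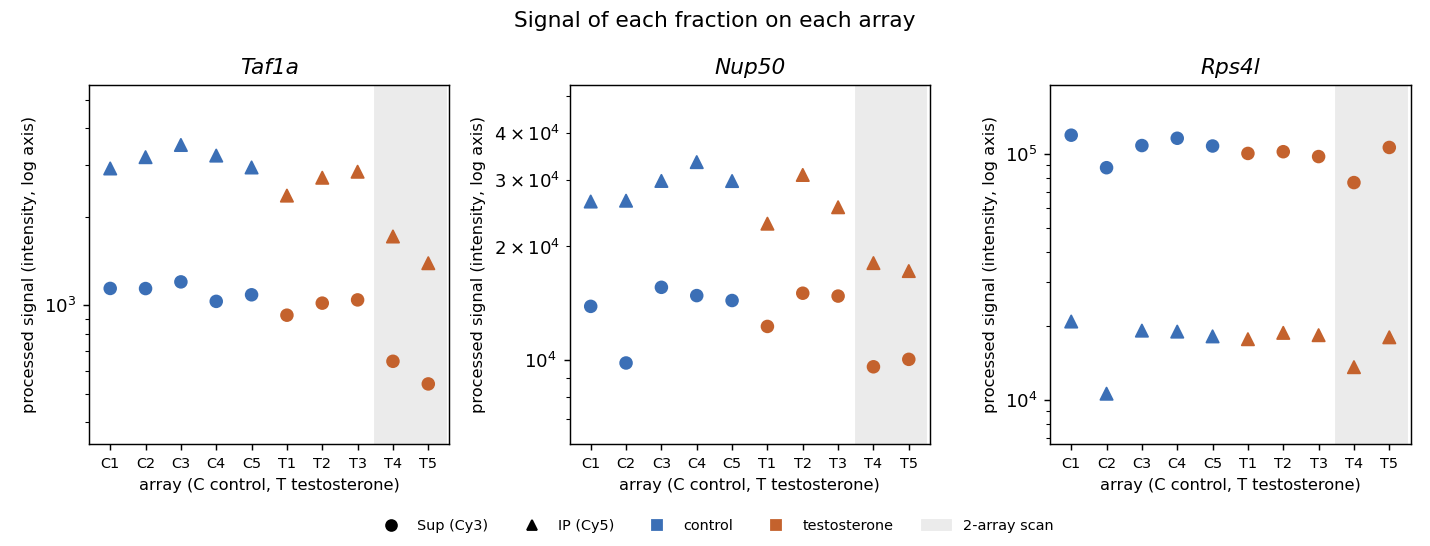
Processed signal of Taf1a, Nup50 and Rps4l on each array (log axes, Sup as circles, IP as triangles, controls C1 to C5 in blue, testosterone T1 to T5 in orange, the 2-array scan shaded). IP lies above Sup on all 10 arrays for Taf1a and Nup50 and below it on all 10 for Rps4l, and T4 and T5 are the dimmest arrays for Taf1a.

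The log2 IP/Sup ratio of Rps4l was -2.53, -3.04, -2.43, -2.61 and -2.57 in the controls and -2.42, -2.47, -2.33, -2.52 and -2.64 in the testosterone samples. Apart from control replicate 2, the arrays lay within -2.64 and -2.33. The mean was -2.56 ± 0.072 (SE, n = 10), a 5.89-fold excess of Sup relative to the array median (limma against 0, adjusted p = 6.45e-13). Its 95% interval was -2.71 to -2.40 on the log2 scale. Only 3.39% of the tested probes had a lower ratio. The ratio of Rps4l before those corrections was below the array median on all 10 arrays.

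The zero of these ratios is the median probe of each array, not an equal amount of RNA. Spike-in RNA had been added to both fractions in equal amount, and the 22 detected spike-in probes had ratios from -3.52 to 1.40 on the same scale. None lay above Taf1a, 4 lay above Nup50 and 1 below Rps4l, the next lowest being at -1.56. With the spike-ins as reference the 3 ratios were 1.71 for Taf1a, 1.26 for Nup50 and -2.30 for Rps4l, so that each kept its side and Nup50 passed the 2-fold minimum.

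**Figure D2:**
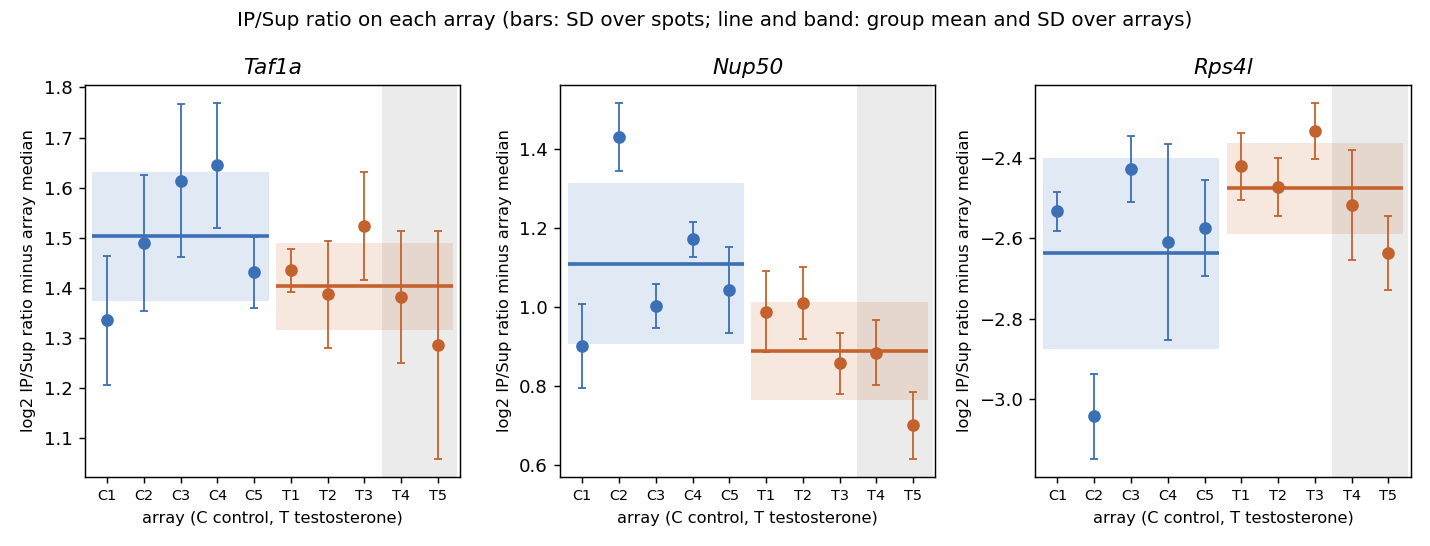
Log2 IP/Sup ratio minus the array median on each array, with bars for the SD over the spots used, and a line and band for the mean and SD of the 5 arrays of each group (controls blue, testosterone orange, 2-array scan shaded; the axes differ between genes). The groups overlap for every gene, and control replicate 2 is the highest array for Nup50 at 1.43 and the lowest for Rps4l at -3.04.

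Repeat spots gave the error of each array's mean. For Taf1a the SD of the log2 ratio between single spots of 1 array was 0.135, which leaves an error of 0.044 in the mean of the spots used, against an SD of 0.109 between arrays within a group. For Nup50 the error of the mean was 0.028 and the SD between arrays 0.169, and for Rps4l they were 0.050 and 0.185. For each gene the arrays thus differed by more than their repeat spots alone would give. Among the 5 testosterone arrays alone the SD between arrays was 0.124 for Nup50 and 0.113 for Rps4l.

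The spots of Rps4l carried a flag that those of the other two genes did not. The scanner software marked 51 of its 100 IP spots as non-uniform, meaning that their pixels varied more than the software allows, and 0 of its Sup spots. The marked spots were spread over both groups, with 5, 5, 7, 8 and 5 of 10 in control replicates 1 to 5 and 5, 4, 2, 5 and 5 of 10 in testosterone replicates 1 to 5. No spot of Taf1a or Nup50 was marked. Among all mouse spots 0.702% were marked in IP, and among 6804 mouse spots of other probes that were as bright in Sup as Rps4l the share was 19.0%. Of the 50 probes with an accession, 4 others had any marked spot, namely Gpi1 with 21%, Apoe with 8%, Prdx2 with 5% and Bambi with 3%.

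Marked spots of Rps4l were dimmer than unmarked ones on the same array. On the log2 scale the difference in IP was -0.23 ± 0.068 (SD, n = 10 arrays), lower on 10 of 10 arrays, while in Sup it was -0.013 ± 0.063. With marked and outlying spots left out, 47 of the 100 Rps4l spots were used, against 94 for Taf1a and 95 for Nup50, and control replicates 3 and 4 rested on 2 spots each. With the non-uniform spots kept, the Rps4l ratio was -2.66 in place of -2.56.

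**Figure D3:**
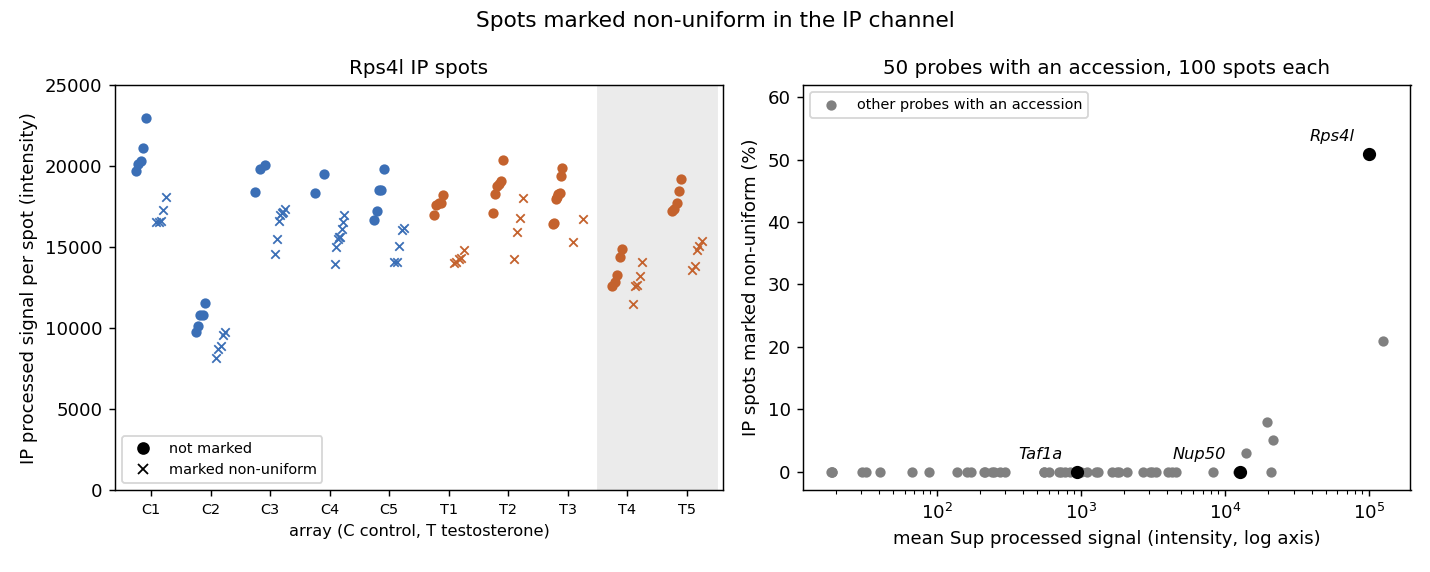
Left, IP signal of single Rps4l spots by array, with unmarked spots as circles and spots marked non-uniform as crosses. Right, share of IP spots marked non-uniform for the 50 probes with an accession, against their mean Sup signal (log axis). The crosses lie mostly below the circles of the same array, and Rps4l has the largest share, 51%.

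The second comparison asks whether prenatal testosterone went with a different split of these RNAs between the fractions. For none of the 3 genes did the groups differ beyond the spread between arrays. The Taf1a ratio was 1.50 ± 0.128 in controls and 1.40 ± 0.086 in testosterone samples (SD, n = 5 each), and the difference of -0.10 had a 95% interval of -0.37 to 0.17 (limma, adjusted p = 0.868). The Nup50 ratio was 1.11 ± 0.204 and 0.89 ± 0.124, with a difference of -0.22 and an interval of -0.52 to 0.08 (adjusted p = 0.794). The Rps4l ratio was -2.64 ± 0.237 and -2.48 ± 0.113, with a difference of 0.16 and an interval of -0.15 to 0.47 (adjusted p = 0.828).

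These intervals do not show that the ratios were equal. For Nup50 they allow a testosterone ratio as low as 0.697 times that of the controls, and for Rps4l one as high as 1.39 times. The call rate of this comparison was 0% of 41424 probes at an adjusted p under 0.05, while 6.04% had an unadjusted p under 0.05. The ratio differences of Nup50 and Rps4l leaned in part on control replicate 2. Without it they were -0.14 and 0.06. Within the 8-array scan they were -0.16 and 0.23. With both that control and the 2-array scan left out they were -0.08 and 0.13, and with the spike-in reference -0.12 and 0.27.

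Levels in each fraction were then compared separately, as log2 signal minus the 75th percentile of that channel on the array. This scaling makes that percentile equal on every array but does not equalise the rest of the signals. The share of mouse probes well above background in IP was 62.1% and 64.7% on testosterone replicates 4 and 5. On the other arrays it was 71.8% to 76.4%. In Sup it was 69.6% and 68.7%, against 69.1% to 75.5%. In bulk tissue, fewer cells of a type and less RNA per cell cannot be told apart in such a level.

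Taf1a was the gene with the lowest unadjusted p-values. Its IP level was 0.83, 0.93, 1.04, 0.93 and 0.86 in the controls and 0.76, 0.72, 0.80, 0.66 and 0.36 in the testosterone samples. All 5 testosterone arrays lay below all 5 controls, a pattern shown by 2.25% of 42295 probes with values on every array. Those were 950 probes, while 386 showed the opposite pattern, so the lower side was the more frequent over the whole array. The difference was -0.26 ± 0.104 (SE), or 1.20-fold, with an unadjusted p of 0.0283 and an adjusted p of 0.340 (limma), so it did not pass over all probes. In this comparison 1 of 44383 probes was called (0.00225%) and 13.8% had an unadjusted p under 0.05. Testosterone replicate 5 was the lowest array. Without it the difference was -0.18, and within the 8-array scan it was -0.16. With the position row as a block it was -0.10. Only row 2 of the 8-array scan held both groups, so that value sets control replicate 5 alone against testosterone replicates 1 to 3.

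The Sup level of Taf1a was -0.51, -0.54, -0.48, -0.69 and -0.56 in the controls and -0.57, -0.67, -0.62, -0.75 and -1.01 in the testosterone samples. Here the groups overlapped. The difference was -0.17 ± 0.110 (SE; limma, adjusted p = 0.486), and -0.07 within the 8-array scan. Across all probes 0% of 44692 were called in Sup, with 11.2% at an unadjusted p under 0.05.

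Adding both fractions, each divided by its own 75th percentile, gave a measure of abundance that weighs IP and Sup equally and does not follow their true RNA amounts. For Taf1a it was 1.31, 1.37, 1.47, 1.34 and 1.32 in the controls and 1.24, 1.19, 1.26, 1.12 and 0.83 in the testosterone samples on the log2 scale. Again all 5 testosterone arrays lay below all controls, as for 2.79% of 45555 probes (1271 probes, against 429 with the opposite pattern). The difference of -0.24 (95% interval -0.44 to -0.03; limma, unadjusted p = 0.0303, adjusted p = 0.302) did not pass over all probes. The call rate was 0.0063% of 47646 probes, with 15.7% at an unadjusted p under 0.05. Within the 8-array scan the difference was -0.13, and the lowest arrays were again testosterone replicates 4 and 5.

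Nup50 abundance was nearly the same in both groups, at 4.68 ± 0.159 in controls and 4.69 ± 0.071 in testosterone samples (SD, n = 5 each). The 95% interval of the difference ran from -0.20 to 0.20 (limma, adjusted p = 0.992). Its Sup level was 3.09, 2.57, 3.22, 3.15 and 3.17 in the controls and 3.16, 3.21, 3.20, 3.14 and 3.21 in the testosterone samples. Only control replicate 2 stood away from the rest. The Sup difference of 0.15 ± 0.131 (SE; limma, adjusted p = 0.586) became 0.03 without that array. The IP level was 4.12 ± 0.136 and 4.06 ± 0.106, with a difference of -0.07 (limma, adjusted p = 0.745). That difference depended on the scaling, at -0.27 with quantile normalization (unadjusted p = 0.0410, adjusted p = 0.356) and -0.23 with the spike-in reference, and it was -0.02 without control replicate 4.

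Rps4l had the widest interval of the 3 genes in IP. Its IP level was 3.67, 2.66, 3.49, 3.48 and 3.49 in the controls and 3.66, 3.51, 3.49, 3.65 and 4.05 in the testosterone samples. The low end was again control replicate 2, and the high end was testosterone replicate 5. The difference of 0.31 ± 0.185 (SE) had an interval of -0.09 to 0.72 (limma, unadjusted p = 0.117, adjusted p = 0.430). It was 0.14 without control replicate 2, 0.20 within the 8-array scan and 0.02 with both left out. With non-uniform and outlying spots kept, the difference was 0.38 (limma, unadjusted p = 0.0496, adjusted p = 0.359). With another background correction (normexp) it was 0.32 (limma, unadjusted p = 0.0479, adjusted p = 0.629).

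The Sup level of Rps4l was 6.02 ± 0.178 in controls and 6.16 ± 0.271 in testosterone samples, a difference of 0.14 (limma, adjusted p = 0.630). Within the 8-array scan that difference was 0.0053. Its abundance was 6.23 ± 0.205 and 6.40 ± 0.264, a difference of 0.17 (adjusted p = 0.514) that was 0.03 within the 8-array scan. The highest abundance of Rps4l, 6.83, and the lowest of Taf1a, 0.83, were both read on testosterone replicate 5.

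**Figure D4:**
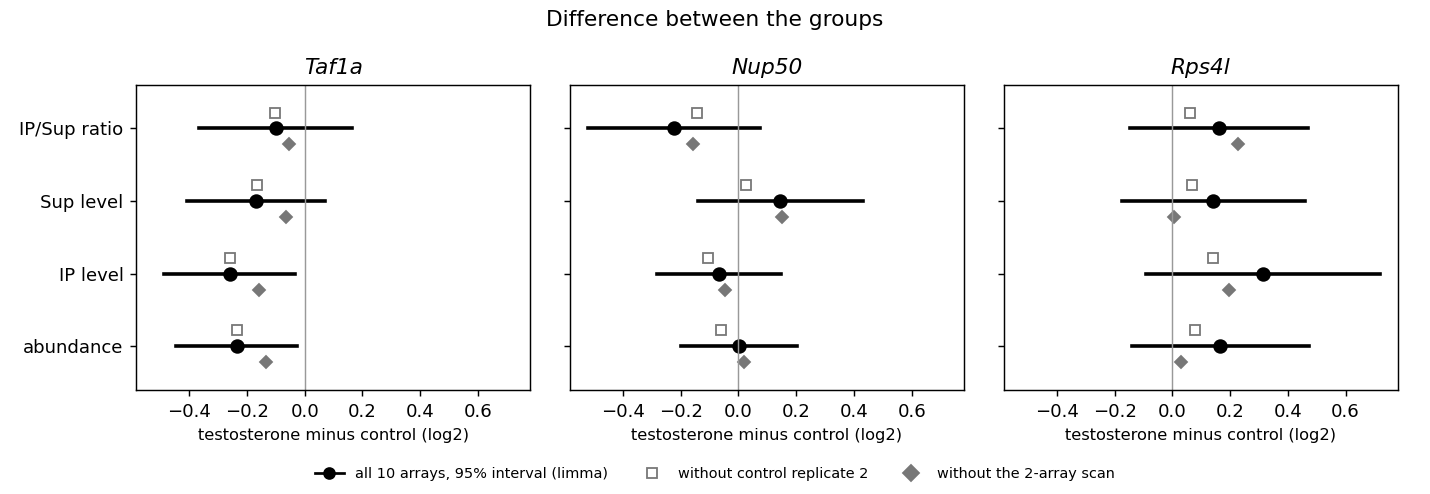
Difference between groups (testosterone minus control, log2) in the IP/Sup ratio, the level of each fraction and the abundance, with 95% intervals from limma over all 10 arrays, and the values without control replicate 2 (squares) and without the 2-array scan (diamonds). The intervals for IP level and abundance of Taf1a lie below 0 before adjustment over all probes, and every other interval includes 0.

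The ratios of the 3 genes varied from array to array with different degrees of likeness. Over the 10 arrays those of Taf1a and Nup50 had a Pearson r of 0.52 (Spearman rho 0.53), and 0.69 without control replicate 2. Those of Taf1a and Rps4l had r = 0.04 (rho 0.22), and 0.30 without that array. The ratios of Nup50 and Rps4l had r = -0.68 (rho -0.38), and -0.011 without control replicate 2, so that this value rested on that array. In abundance, Taf1a and Rps4l had r = -0.75 (rho -0.50), and -0.78 without control replicate 2. Testosterone replicate 5 was at one end for both genes. No value without that array was computed, so how far r rested on it was not tested. All such values come from arrays that share scaling, scan and group, and are given as descriptions over 10 arrays.

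For each gene the named probes whose values followed it most closely were taken from 37 named probes with values on all arrays. By IP/Sup ratio, Taf1a was most like Lhx1, a homeobox transcription factor (Pearson r = 0.86, Spearman rho = 0.90), and Gsta4, a glutathione transferase (0.73 and 0.76). Nup50 was most like Chgb, a secretory granule protein (r = 0.82, rho = 0.78), and Uhrf1bp1l (0.81 and 0.79). Rps4l was most like Prdx2, a peroxiredoxin (r = 0.94, rho = 0.68), and Gsdmd, a pore-forming protein of inflammatory cell death (0.92 and 0.88). Without control replicate 2 the Pearson values of Rps4l with Prdx2 and of Nup50 with Chgb were 0.71 and 0.62, whereas that of Taf1a with Lhx1 was 0.87.

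By abundance, Taf1a was most like Alkbh4, a member of the AlkB dioxygenase family (r = 0.85, rho = 0.79), and Spats1, a spermatogenesis-associated gene (0.83 and 0.62). The value for Spats1 was 0.44 within the 8-array scan. For Nup50, H2-Q7, a class Ib histocompatibility gene, had r = 0.82 and rho = 0.60, and the Pearson value was 0.58 without control replicate 2. Rps4l was most like Gpi1, the glycolytic enzyme glucose-6-phosphate isomerase (r = 0.94, rho = 0.71), and Uhrf1bp1l (0.77 and 0.55). Gpi1 was also the named probe with the next largest share of non-uniform IP spots after Rps4l, and the part of that in the likeness was not tested.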

How the data were processed

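Each testis was hybridised to 1 two-colour array. The deposited processed signal is an intensity that the authors obtained with Agilent Feature Extraction 11.0.1.1, background subtracted, spatially detrended and dye normalized (linear and lowess), per the file headers. The deposited median spot and background signals are intensity values without correction, and the deposited flags, values of 0 or 1, mark spots well above background, saturated, non-uniform or outlying. Spots marked non-uniform or outlying in either channel were left out, and the remaining spots of a probe were averaged as log2. Ratios were centred on the median of the array's mouse probes, and levels were scaled to the 75th percentile. Probes had to be well above background, in at least 50% of their spots, on at least 5 arrays. All probes were fitted with limma 3.58.1 in R 4.3.3 (lmFit, eBayes, Benjamini-Hochberg), and the script was tested on simulated data. The number of arrays limits the precision. Names came from a RefSeq table of GRCm38.p6, where 45 of 50 accessions matched. The array was designed on another build, so no coordinates are given. The named genes were the 3 genes and, for each, the 2 named probes closest in ratio and the 2 closest in abundance by Pearson r; 1 gene that this rule takes is not reported here. The genes and lists were chosen with earlier results of these data known. The deposited value table holds no probe of the 3 genes and was not used. Alternatives covered background correction, dim-probe filters, outlier flags, scaling, scan and position blocks, left-out arrays and a variance trend. Figures were drawn with matplotlib 3.10.9 in Python 3.11.15.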

Additional observations from a re-analysis of the deposited data

Results flagged for a closer look

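In 24 groups of 5 arrays (3 genes, 4 quantities, 2 treatments), 3 had an end value whose gap to its neighbour exceeded 0.71 of the group's range. Chance alone gives such a gap in about 1 of 20 groups. The 4 quantities come from the same Sup and IP signals, so the 24 groups are not independent. Their count therefore cannot show an excess over that rate. The Nup50 Sup level of control replicate 2 was 2.57, against 3.09 to 3.22 in the other controls. The Rps4l IP level of the same array was 2.66, against 3.48 to 3.67. The Nup50 abundance of testosterone replicate 2 was 4.81, against 4.63 to 4.67 in the other testosterone samples.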

How the results depend on the processing

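Taf1a and Rps4l kept their sides of the IP/Sup ratio under every alternative run, with ranges of 0.96 to 1.71 and -2.67 to -2.30. Taf1a fell below the 2-fold minimum, at 0.96, under normexp background correction without loess. Nup50 passed the 2-fold minimum without the 2-array scan (1.03), with outlying spots kept (1.00), with non-uniform spots kept (1.00), with loess (1.08) and with spike-in reference (1.26), and leaving out 1 array at a time gave 0.96 to 1.02. It was lowest with normexp (0.93) and with normexp without loess (0.76). No difference between groups passed the threshold under any alternative run. The IP difference ranged from -0.42 to -0.10 for Taf1a, -0.27 to -0.02 for Nup50 and 0.02 to 0.39 for Rps4l. Directions turned as follows, all far from the threshold. With spike-in reference the Taf1a ratio difference was 0.0056 and the Nup50 abundance difference -0.13. With the position row as a block the Taf1a ratio difference was 0.018, Rps4l Sup -0.044, Nup50 abundance -0.075 and Rps4l abundance -0.028. The group difference of that fit sets control replicate 5 alone against testosterone replicates 1 to 3. Quantile normalization gave -0.19 for Rps4l Sup, -0.18 for Nup50 abundance and -0.15 for Rps4l abundance. Without the 2-array scan and control replicate 2 these 3 were -0.069, -0.042 and -0.056. Normexp gave -0.037 for Nup50 abundance, and leaving out 1 array at a time -0.059 to 0.041. Rps4l kept its direction when 1 array at a time was left out, with 0.032 to 0.203 in Sup and 0.057 to 0.223 in abundance. The causes were not tested. The position row, the combined omission, normexp without loess and the separate non-uniform flag were added after the data were seen. The planned blocks by slide and by scan were 1 fit with each scan taken as 1 slide. If the first number of the array codes marks a slide instead, the block by slide is the fit with the position row. The value table was not run, since it lacks these probes.

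The labels do not say that replicate numbers pair the samples. Deviations of same-numbered arrays correlated at -0.030 to 0.041 for the ratio and -0.051 to 0.212 for abundance. In both, 0 of 5 arrays correlated best with their own number. Numbers 4 and 5 set arrays of different scans against each other, so these values cannot exclude a pairing. With the replicate block the Taf1a ratio difference was -0.10 (limma, adjusted p = 0.878) and its IP difference -0.26 (adjusted p = 0.312), within ranges of adjusted p over all alternatives of 0.696 to 1.00 and 0.264 to 0.985, and no call of the 3 genes changed.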
